A study of Danio rerio with 4 samples.

Results

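Skeletal muscle genes were followed in zebrafish hearts and the tissue taken with them: the myogenic regulatory factor genes myod1, myog and myf5, and the fast muscle genes pvalb1, pvalb2, mylpfa and ckma. Their probe sets were found by symbol, and the 7 genes were chosen with earlier results of these data known. All 7 were on the array, with 8 of its 15502 probe sets (mylpfa has a pair) and as 7 of 8793 named genes. The hearts came from wild-type embryos 48 hours post fertilization, and a syringe was used to free them with surrounding tissue. One group of 2 arrays was from embryos in 10 μM SU5402, an inhibitor of the receptor kinases for fibroblast growth factors (FGF), diluted from a stock in DMSO. The other group of 2 arrays was from siblings in 1% DMSO, the solvent. Each array was hybridised with RNA from tissue that holds heart and neighbouring cells together, and how many embryos went into each is not given in the labels, nor are the start and length of the treatment. The labels do not say that the replicates came from separate clutches, so the spread behind each p-value is that between these arrays and may be technical. Each SE and p-value from limma joins a probe set's own spread with the spread typical of all probe sets.

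Skeletal muscle is specified by a family of basic helix-loop-helix transcription factors. Myf5 and MyoD, products of myf5 and myod1, commit cells to the lineage, and Myogenin, product of myog, drives their differentiation. They bind DNA together with E proteins, and Id proteins block this pairing. Fast fibres then express their own set of contractile and metabolic genes, including parvalbumins, which buffer calcium, the regulatory myosin light chain (mylpfa) and muscle creatine kinase (ckma), which regenerates ATP and is also known from heart muscle. In zebrafish somites FGF signalling is known to promote myod1 expression and fast fibre formation. Heart muscle does not depend on these myogenic factors, and the skeletal muscle nearest to the embryonic heart is that of the head, the body wall and the pectoral fin.

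Each value is a linear intensity of 1 probe set. Between 55.2% and 56.1% of probe sets on each array lay above the Tag level, an intensity of 136 (log2 7.25), which is the 95th percentile of 17 control probe sets with no target in zebrafish RNA. Every difference is given as SU5402 minus DMSO after taking log2(intensity + 16), which shrinks the ratio of dim intensities. Sizes below the Tag level depend on this added constant and are not compared between genes. In limma 0 of 15502 probe sets (0%) and 0 of 8793 genes (0%) passed an adjusted p under 0.05, with a lowest adjusted p of 0.255, so none of the differences below passed it, whatever their size. An unadjusted p under 0.05 was found for 2008 probe sets (13%). The ratio of 3' to 5' signal for the control gene gapdhs is a sign of RNA or labelling quality. It was 26.6 and 29.7 in the SU5402 arrays, against 20.3 and 21.7 in the DMSO arrays. The ratio of 3' to middle signal did not separate the groups. For gapdhs it was 3.93 and 3.64 in the SU5402 arrays, against 3.90 and 3.71 in the DMSO arrays. For the acta1 controls it was 11.6 and 7.04, against 7.81 and 7.75. The part of RNA or labelling quality in the results was not tested. The number of arrays limits the precision.

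All 3 myogenic regulatory factor genes were lower after SU5402, in a range of intensities at or below background on most arrays. The intensity of myog was 54.8 and 72.8 in the SU5402 arrays, against 171 and 293 in the DMSO arrays. Both SU5402 arrays lay below the Tag level and both DMSO arrays above it, with no overlap. The means were 6.31 ± 0.23 and 7.91 ± 0.51 (log2, SD, n = 2 each), a difference of -1.60 (SE 0.37), or 3.04-fold. With every value under the Tag level raised to it, so that only the measured part remains, the difference was -0.66.

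The intensity of myod1 was 15.5 and 25.9 in the SU5402 arrays, against 75.3 and 113 in the DMSO arrays. The groups did not overlap, but all 4 values lay below the Tag level. The difference was -1.58 (SE 0.35), a ratio of 2.99 on this scale. For myf5 the intensities were 27.5 and 27.9 in the SU5402 arrays, against 92.5 and 90.3 in the DMSO arrays. Replicates of each group were almost equal here, and again no array reached the Tag level. The difference was -1.30 (SE 0.30), a ratio of 2.46. The SDs of myf5 were 0.007 in the SU5402 arrays and 0.021 in the DMSO arrays (log2, n = 2 each). Its SE therefore comes almost wholly from the spread over all probe sets. With values raised to the Tag level, myod1 and myf5 showed no difference, since every array was at that level.

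All 3 of these genes had an unadjusted p under 0.05 in limma (0.0043 for myod1, 0.0055 for myog and 0.0048 for myf5, each with an adjusted p of 0.255). Over all genes, 8.04% were lower with such a p, and among genes that lay below the Tag level on average, as these do, 5.84% were (9.15% among those above it). Without any 1 of the 4 arrays, all 3 were still lower. Their median difference was then -1.83 when DMSO replicate 1 was left out and -1.31 when DMSO replicate 2 was. It was -1.37 without SU5402 replicate 1 and -1.77 without SU5402 replicate 2. With values raised to the Tag level, 0 of the 3 had an unadjusted p under 0.05 in limma (0.166 for myog). The groups did not overlap in any of the 3, and over all genes 26.3% were lower without overlap. The plot of intensities by gene and array shows both the separation of the groups and the position of these genes near background.

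**Figure D1:**
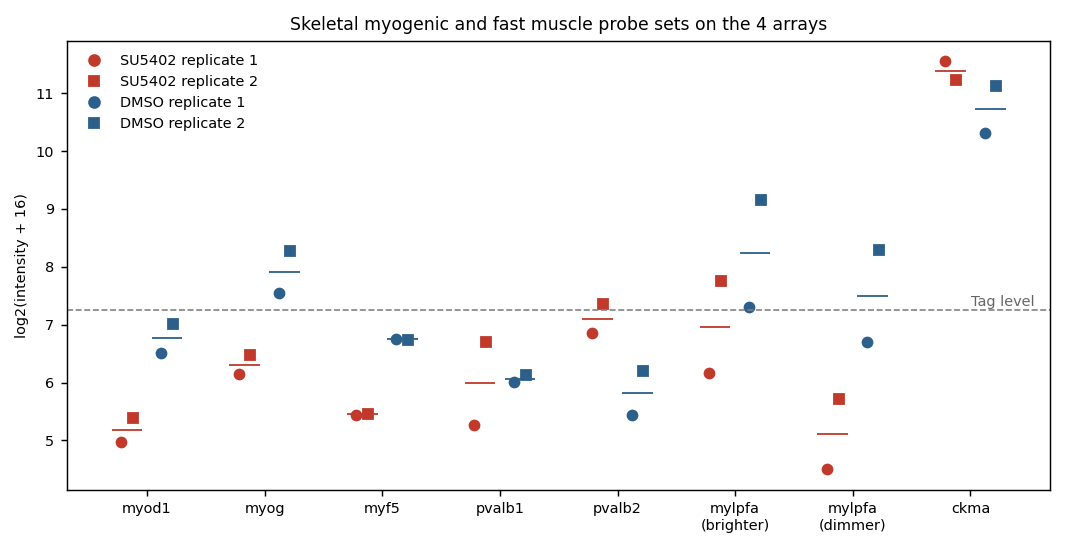
Each point is 1 array's log2(intensity + 16) for a probe set of the 7 genes, SU5402 in red and DMSO in blue, with circles for replicate 1, squares for replicate 2 and bars for group means. The dashed line is the Tag level at 7.25. SU5402 and DMSO arrays separate in myod1, myog and myf5, and also in pvalb2, ckma and the dimmer probe set of mylpfa. Over all genes, 26.3% were lower and 19.3% higher without overlap of the groups. Replicates lie far apart in mylpfa, and in ckma alone all 4 arrays are above the line.

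Of 35 other genes listed as regulators of myogenesis, 21 were measured, and their median difference was -0.12, against -0.08 over all genes. Without SU5402 replicate 1 that median was -0.52, without DMSO replicate 1 it was -0.38, and without DMSO replicate 2 it was -0.01. Without SU5402 replicate 2 it was -0.03. With all arrays, 3 were lower and 2 higher with an unadjusted p under 0.05 in limma (8.04% and 5.31% of all genes), and 10 were lower and 6 higher without overlap of the groups (26.3% and 19.3% of all genes). The Id gene id1, whose product blocks myogenic factors from pairing with E proteins, was far above background, at 3634 and 3154 in the SU5402 arrays, against 7428 and 7557 in the DMSO arrays. Its difference was -1.14 (SE 0.30), the same (-1.14) with the Tag floor. Of its relatives, id2a was at 0.29 (0.13 without SU5402 replicate 1) and id3 at -0.12 (0.13 without DMSO replicate 2).

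The gene of the adhesion molecule Jam2a, known for its role in myoblast fusion, had intensities of 30.2 and 45.6 in the SU5402 arrays, against 100 and 109 in the DMSO arrays, all below the Tag level (-1.18, SE 0.32). The sine oculis-related homeobox gene six4b was at 21.0 and 31.4 in the SU5402 arrays, against 177 and 62.9 in the DMSO arrays. Its difference of -1.56 (SE 0.49) was -0.91 without DMSO replicate 1.

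Genes of E proteins, the partners of the myogenic factors, differed in direction. All 4 probe sets of tcf12, which measure 1 gene, were lower without overlap, at -0.19 to -0.76. Over all genes, 26.3% were lower without overlap. None of the tcf12 probe sets had an unadjusted p under 0.05 in limma (lowest 0.073). The brightest of them was at 1548 and 1684 in the SU5402 arrays, against 2197 and 2792 in the DMSO arrays. By contrast tcf3a was at 52.7 and 67.3 in the SU5402 arrays, against 5.51 and 23.0 in the DMSO arrays, a difference of 1.39 (SE 0.40) wholly below the Tag level, and 2.28 with a pseudocount of 1.

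The fourth myogenic factor gene on the array, myf6, lies next to myf5 in the RefSeq annotation of assembly GRCz12tu. Its intensities were 113 and 81.7 in the SU5402 arrays, against 71.8 and 65.2 in the DMSO arrays, below the Tag level throughout. The difference was 0.41 (SE 0.32), opposite in sign to that of myf5. A second probe set of myf6 was dimmer, at 38.2 and 6.82 in the SU5402 arrays, against 8.44 and 5.96 in the DMSO arrays. Its groups overlapped (0.60, SE 0.47). The muscle precursor genes pax3a and pax7a were at 1.04 (SE 0.39) and 0.10 (SE 0.41), with pax3a below the Tag level on every array. Without DMSO replicate 1, pax3a was at 0.62 and pax7a at -0.32. Of the 21 genes, 11 were lower and 10 higher with all arrays. Without DMSO replicate 1, 13 were lower and 8 higher, and without SU5402 replicate 1, 14 were lower and 7 higher.

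The fast muscle genes did not move as 1 group: of pvalb1, pvalb2, mylpfa and ckma, both mylpfa and pvalb1 were lower and both pvalb2 and ckma higher after SU5402. Their median difference was 0.29, and 1 array moved it widely: it was 0.06 without DMSO replicate 1, 0.53 without DMSO replicate 2, 0.57 without SU5402 replicate 1 and 0.02 without SU5402 replicate 2. By the brightest probe set of each gene, 0 were lower and 1 was higher with an unadjusted p under 0.05 in limma. The higher gene was pvalb2 (5.31% of all genes were higher with such a p). The dimmer probe set of mylpfa was lower with an unadjusted p of 0.0112 in limma, at an adjusted p of 0.267.

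The regulatory myosin light chain gene mylpfa had the widest spread between replicates. Its brighter probe set was at 56.0 and 199 in the SU5402 arrays, against 142 and 556 in the DMSO arrays. The groups overlapped, since SU5402 replicate 2 exceeded DMSO replicate 1. The means were 6.96 ± 1.12 and 8.23 ± 1.31 (log2, SD, n = 2 each), and the difference was -1.27 (SE 0.77). This is smaller than the distance of 1.58 between the SU5402 arrays and of 1.85 between the DMSO arrays, a distance at the percentile 99.4 of all probe sets by size. Distances between single arrays vary more than differences between means of 2 arrays. The difference was -0.35 without DMSO replicate 2 and -2.20 without DMSO replicate 1, and -0.48 without SU5402 replicate 1 and -2.06 without SU5402 replicate 2.

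A second probe set of mylpfa was dimmer, at 6.66 and 36.7 in the SU5402 arrays, against 88.0 and 296 in the DMSO arrays. Here the groups did not overlap, and the difference was -2.38 (SE 0.65), or -0.52 with the Tag floor. Only DMSO replicate 2 was above the Tag level in this probe set.

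The parvalbumin genes differed from one another. The intensity of pvalb2 was 99.7 and 147 in the SU5402 arrays, against 27.6 and 57.1 in the DMSO arrays. Only SU5402 replicate 2 was above the Tag level, and the groups did not overlap. The difference was 1.28 (SE 0.39), with an unadjusted p of 0.0179 and an adjusted p of 0.29 in limma. It was 0.05 with the Tag floor and 0.91 without DMSO replicate 1 (unadjusted p = 0.134 in limma), and 1.03 without SU5402 replicate 2 (unadjusted p = 0.059 in limma). The intensity of pvalb1 was 22.7 and 88.1 in the SU5402 arrays, against 48.6 and 54.0 in the DMSO arrays. The DMSO arrays lay between the SU5402 arrays, all 4 were below the Tag level, and the difference was -0.08 (SE 0.51).

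In the RefSeq annotation pvalb1 lies between pvalb4 and pvalb5, and pvalb2 next to pvalb3. These neighbours were at 0.10 (SE 0.30) for pvalb4, -0.49 (SE 0.45) for pvalb5 and -0.40 (SE 0.31) for pvalb3. Whether transcripts of 1 parvalbumin gene bind probes of another was not tested.

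The creatine kinase gene ckma was the 1 gene of the 7 that lay above the Tag level on all arrays. Its intensity was 2992 and 2375 in the SU5402 arrays, against 1255 and 2224 in the DMSO arrays. The groups did not overlap, but SU5402 replicate 2 (log2 11.22) and DMSO replicate 2 (log2 11.13) were close. The means were 11.39 ± 0.23 and 10.72 ± 0.58 (log2, SD, n = 2 each), a difference of 0.67 (SE 0.39) with an adjusted p of 0.542 in limma. It was 0.26 without DMSO replicate 1 and 1.08 without DMSO replicate 2. Its paralogue ckmb, also a muscle creatine kinase gene, went the other way, at 252 and 488 in the SU5402 arrays, against 500 and 2485 in the DMSO arrays. The difference for ckmb was -1.63 (SE 0.77), and it was -0.49 without DMSO replicate 2.

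The wider set of fast muscle genes was listed to set these 7 beside the rest of the fibre. Of 58 further genes, 27 were measured, 15 lower and 12 higher after SU5402, with a median difference of -0.30 against -0.08 over all genes. An unadjusted p under 0.05 in limma was found for 3 that were lower (8.04% of all genes) and 0 that were higher (5.31%). At least 2-fold and without overlap, 4 were lower and 0 higher, against 6.31% and 4.42% of all genes. Of the 27 genes, 10 lay below the Tag level on every array. With the Tag floor, 12 of the 27 were lower and 5 higher, and the median was 0.

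The genes with the lowest p were of thin and thick filament proteins. The fast troponin T gene tnnt3a, which lies next to myod1 in the RefSeq annotation, was at 24.98 and 33.3 in the SU5402 arrays, against 78.8 and 178 in the DMSO arrays (-1.59, SE 0.43). The fast troponin I gene tnni2b.1 was at 106 and 121 in the SU5402 arrays, against 229 and 647 in the DMSO arrays (-1.64, SE 0.52). The essential myosin light chain gene myl1 was at 8.50 and 23.9 in the SU5402 arrays, against 42.2 and 293 in the DMSO arrays (-2.10, SE 0.79). In each of these genes both SU5402 arrays lay below the Tag level and DMSO replicate 2 was the highest array. With the Tag floor they were at -0.18, -1.41 and -0.51. The calcium pump gene atp2a1l was at 33.0 and 62.5 in the SU5402 arrays, against 14.8 and 21.6 in the DMSO arrays, all below the Tag level (0.87, SE 0.37).

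The directions and the median of the 27 genes moved with the array left out. Without DMSO replicate 2, 12 were lower and 15 higher, and the median was 0.09. The values of tnnt3a, tnni2b.1 and myl1 were then -1.08, -0.92 and -0.90. Without DMSO replicate 1, 18 genes were lower and 9 higher (median -0.45). Without SU5402 replicate 1, 14 were lower and 13 higher (median -0.07). Without SU5402 replicate 2, 16 were lower and 11 higher (median -0.51). The plot of differences by gene orders both gene sets by their values.

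**Figure D2:**
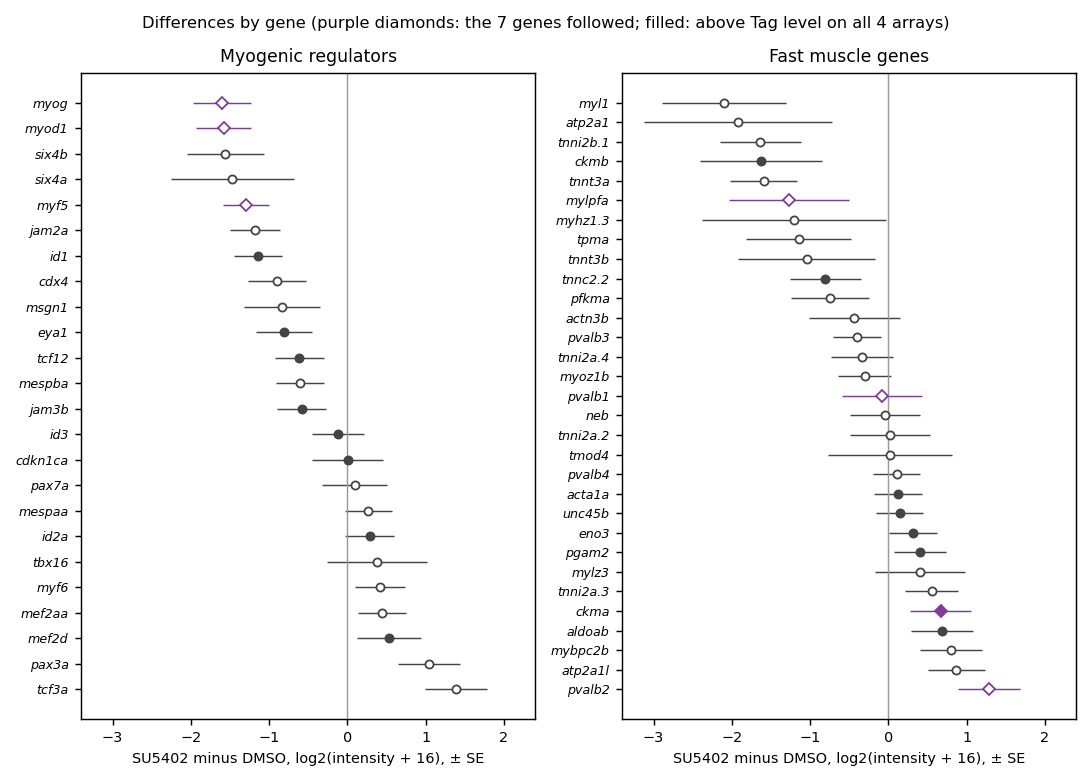
Points give the difference in log2(intensity + 16) between SU5402 and DMSO (SU5402 minus DMSO), bars the SE from limma, for measured myogenic regulators (left) and fast muscle genes (right), the 7 genes followed as purple diamonds. Filled points were above the Tag level on all 4 arrays. The genes myog, myod1 and myf5 were all lower, while fast muscle genes lay on both sides, from -2.10 for myl1 to 1.28 for pvalb2. Sizes that rest on values below the Tag level depend on the added constant and are not compared between genes.

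For the 27 other fast muscle genes, the median absolute difference was 0.62 between the SU5402 arrays and 0.87 between the DMSO arrays, against 0.55 between the treatments. Over all genes these medians were 0.46, 0.30 and 0.37. The first 2 compare single arrays and the third means of 2 arrays, which vary less, so their sizes are not directly comparable. Counting the 4 fast genes followed and the 27 others, DMSO replicate 2 was the highest of the 4 arrays for 18 of 31, against 20.6% of all genes. DMSO replicate 2 exceeded DMSO replicate 1 by more than 1 log2 unit for 13 of 31 (3.43% of all genes), and SU5402 replicate 2 exceeded SU5402 replicate 1 by that much for 6 of 31 (8.996% of all genes). Both replicate 2 arrays were above the replicate 1 array of their own group for 20 of 31, against 24.1% of all genes.

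The fast calcium pump gene atp2a1 was at 78.8 and 615 in the SU5402 arrays, against 320 and 2519 in the DMSO arrays. The troponin T gene tnnt3b was at 112 and 319 in the SU5402 arrays, against 166 and 990 in the DMSO arrays. The tropomyosin gene tpma was at 88.4 and 182 in the SU5402 arrays, against 152 and 589 in the DMSO arrays. In these 3 genes, as in mylpfa, SU5402 replicate 2 lay above DMSO replicate 1, so the treatment groups overlapped. Their differences of -1.92, -1.05 and -1.15 were -0.46, 0.18 and -0.22 without DMSO replicate 2. The fast myosin heavy chain gene myhz1.3 had the same order of arrays, at 16.1 and 301 in the SU5402 arrays, against 98.7 and 458 in the DMSO arrays.

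For the 3 myogenic factor genes followed, replicates lay closer together than for mylpfa. The DMSO arrays were 0.50 apart for myod1, 0.72 for myog and 0.03 for myf5. By size these distances were at percentiles 68.7, 82.5 and 5.35 of all probe sets. The SU5402 arrays were 0.41, 0.33 and 0.01 apart. Each distance was below the difference between the treatments. Most of these values lay below the Tag level, where the added constant shrinks ratios. The skeletal actin gene acta1a was about level in all arrays, at 1206 and 1182 in the SU5402 arrays, against 994 and 1213 in the DMSO arrays (0.12, SE 0.31, and -0.02 without DMSO replicate 1).

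**Figure D3:**
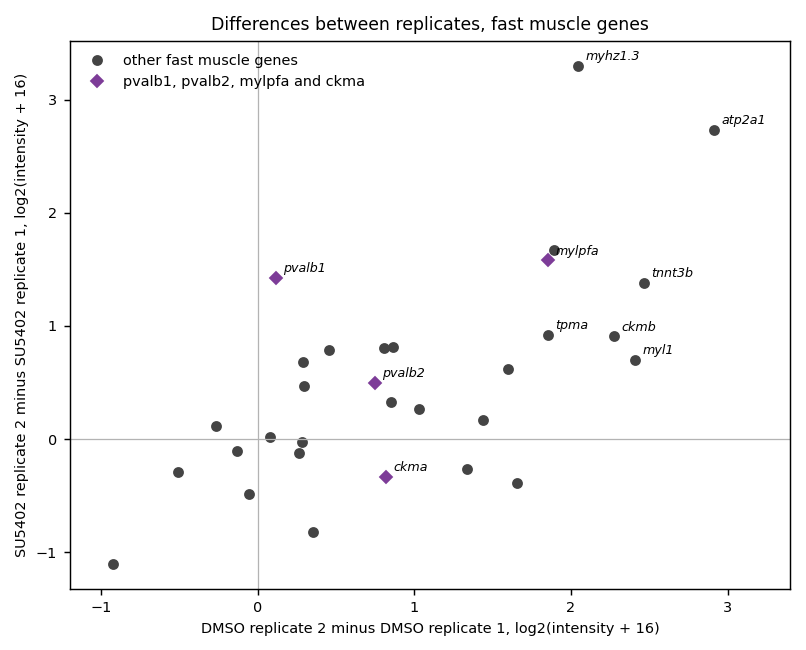
Each point is a fast muscle gene, placed by the difference between DMSO replicates (horizontal) and between SU5402 replicates (vertical), both as replicate 2 minus replicate 1 on the log2(intensity + 16) scale. Of 31 genes, 20 lie in the upper right, where both replicate 2 arrays are higher. The genes atp2a1 and myhz1.3 lie farthest out there, mylpfa lies nearer, and ckma lies outside this quadrant.

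Slow fibre genes and genes of the muscle membrane and neuromuscular junction were few on the array or divided in direction. Of 18 slow muscle genes 3 were measured, all with groups that overlapped: the slow myosin gene smyhc1 was at 0.40 (SE 0.50), myl10 at 0.20 (SE 0.33) and prox1a at 0.14 (SE 0.37). Without SU5402 replicate 1, smyhc1 was at 1.07, and without SU5402 replicate 2 at -0.27. Without DMSO replicate 2, myl10 was at -0.03 and prox1a at -0.02. Of 26 membrane and junction genes 12 were measured, 7 lower and 5 higher, with a median of -0.03. The caveolin gene cav3, whose product coats the muscle surface membrane, was at 24.9 and 50.7 in the SU5402 arrays, against 89.8 and 101 in the DMSO arrays. Its difference of -1.09 (SE 0.36) lay wholly below the Tag level. The gene cav3 was the 1 of the 12 with an unadjusted p under 0.05 in limma (8.04% of all genes were lower with such a p). The dystrophin gene dmd, the sarcoglycan gene sgcd and the acetylcholine receptor gene chrna1 were at 0.51, 0.38 and -0.50. Without SU5402 replicate 2, chrna1 was at -0.15.

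Markers of other tissues also differed between the arrays. All 8 measured heart muscle markers were higher after SU5402 (median 1.92). Each had an unadjusted p under 0.05 in limma (5.31% of all genes were higher with such a p). Their summed intensity was 44851 and 36267 in the SU5402 arrays, against 18958 and 8047 in the DMSO arrays, lowest in DMSO replicate 2. In that array the summed intensity of the 27 other fast muscle genes was highest. That of pvalb1, pvalb2, mylpfa and ckma was highest in SU5402 replicate 1 (3170, against 2892 in DMSO replicate 2). Most of that sum was ckma, at 2992 in SU5402 replicate 1 and 2224 in DMSO replicate 2. By itself mylpfa was highest in DMSO replicate 2, and pvalb1 and pvalb2 were highest in SU5402 replicate 2. The brightest of the 8, the actin gene actc1a, was at 16471 and 12654 in the SU5402 arrays, against 7678 and 4768 in the DMSO arrays (1.25, SE 0.37). The light chain gene myl7, with a larger difference (2.32, SE 0.88), was at 9171 and 4702 in the SU5402 arrays, against 3302 and 505 in the DMSO arrays. Without DMSO replicate 2 the median of the 8 was 0.96, and without SU5402 replicate 1 it was 1.72. A pseudocount of 1 left 5 of the 8 with an unadjusted p under 0.05 in limma. The Tag floor left 0 of 8 in limma (lowest 0.0598), with all 8 still higher. Like these genes, ckma was higher in the SU5402 arrays, but between the DMSO arrays it ran the other way, with 1255 in replicate 1 and 2224 in replicate 2.

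Of 16 measured markers of pectoral fin and limb mesenchyme, 15 were lower (median -2.25). Of them, 9 had an unadjusted p under 0.05 in limma (8.04% of all genes were lower with such a p). Their median was -1.53 without DMSO replicate 2 and -2.73 without DMSO replicate 1. Their summed intensity was 7689 and 11675 in the SU5402 arrays, against 36310 and 60152 in the DMSO arrays. A few bright genes made up most of each sum. The fin fold gene and2 was at 122 and 1250 in the SU5402 arrays, against 12097 and 17419 in the DMSO arrays. The gene hand2 was at 4936 and 5061 in the SU5402 arrays, against 5436 and 7772 in the DMSO arrays (-0.38, SE 0.33). Medians of values centred on each gene's mean were also compared. By these, this list, myod1, myog and myf5, the FGF feedback genes and the somite and connective tissue markers had the same order of arrays. From lowest to highest it was SU5402 replicate 1, SU5402 replicate 2, DMSO replicate 1 and DMSO replicate 2. The 27 other fast muscle genes had the same lowest and highest array, but SU5402 replicate 2 (0.02) lay above DMSO replicate 1 (-0.29). Neuron markers were higher in 11 of 12 (median 1.00), with a summed intensity of 54659 and 34626 in the SU5402 arrays, against 27073 and 20547 in the DMSO arrays. With an unadjusted p under 0.05 in limma there were 5 of them (5.31% of all genes were higher with such a p). Their median was 0.48 without SU5402 replicate 1 and 1.52 without SU5402 replicate 2. Of 7 measured somite and connective tissue markers, 5 were lower. The collagen gene col1a1a was at 1882 and 9772 in the SU5402 arrays, against 17760 and 24823 in the DMSO arrays, a difference of -2.29 (SE 0.76), and -1.10 without SU5402 replicate 1. A second collagen gene, col1a2, was at -0.41 (0.61 without SU5402 replicate 1), and its other probe set at 0.01. The lowest p of this list was that of xirp2a. It was higher, at 193 and 201 in the SU5402 arrays, against 98.7 and 79.9 in the DMSO arrays (1.02, SE 0.31). The list joins somite and connective tissue genes, and which cells the RNA of xirp2a came from was not tested. The part of these tissues in the muscle gene differences was not tested. In such pooled tissue fewer muscle cells and less RNA of these genes per cell cannot be told apart.

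**Figure D4:**
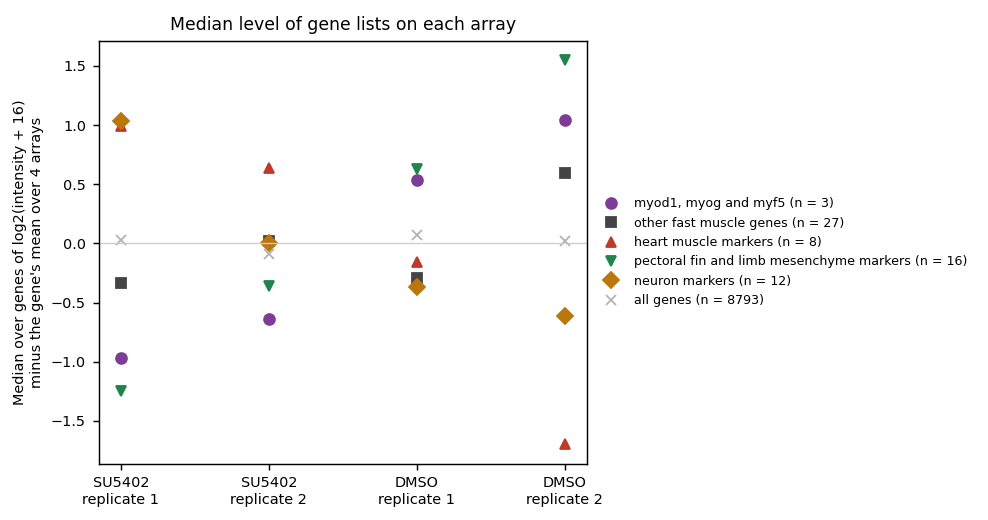
For each array, points give the median over a gene list of log2(intensity + 16) minus the gene's own mean over the 4 arrays. The genes myod1, myog and myf5 (-0.96 and -0.64 in the SU5402 arrays, 0.54 and 1.04 in the DMSO arrays) lie on the side of the fin markers on each array, opposite to heart markers, while the other fast muscle genes are high in DMSO replicate 2 (0.60) and not in DMSO replicate 1 (-0.29).

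As a readout of the inhibitor, 11 FGF feedback genes were measured, 8 lower and 3 higher, with a median of -1.41 (-1.14 without DMSO replicate 2). Lower with an unadjusted p under 0.05 in limma were 7 of the 11 (8.04% of all genes). The genes that were higher were dusp5 at 0.30, dusp2 at 0.23 and spry2 at 0.18. The ETS factor gene etv5b was at 132 and 143 in the SU5402 arrays, against 1975 and 2595 in the DMSO arrays, with no overlap.

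Genes were also ranked by how near their profile over the 4 arrays lay to that of the muscle genes, as the Euclidean distance between values centred on each gene's mean, among 5848 genes above the Tag level on average. Since pvalb1, pvalb2, mylpfa and ckma differed in direction, their mean profile was nearly flat between treatments. The 5 nearest genes to it were si:ch211-121a2.2, kdm4b, irf2bp2b, soul4 and ist1, at distances of 0.09 to 0.16, with differences of 0.00 to 0.26. None of myod1, myog and myf5 was above the Tag level on average, so no nearest genes were named for them. For mylpfa alone, added after its values were seen, the 8 nearest genes were ptgs2a, tpma, tnnt3b, si:ch211-207n23.2, plekhh1, cercam, nqo1 and nck1a, at distances of 0.41 to 0.66. Of these, tpma and tnnt3b were in the fast muscle list.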

How the data were processed

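The deposited intensity values, 1 per probe set and array, come from Affymetrix-type arrays hybridised with biotin-labelled RNA, per the labels' protocols. Their summarisation and scaling by the authors is not given in the sources used here. All arrays shared a trimmed mean (2% off each end) of about 500.1. Of 15502 probe sets, 10795 had 1 gene symbol, 135 several and 4572 none in the platform's old annotation, with symbols brought up to date by Entrez ID, and 115 control probe sets were left out. A gene was represented by its brightest probe set. Of the listed symbols, 2 were matched through a synonym.

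Intensities were taken to log2(value + 16) and fitted with limma 3.58.1 (R 4.3.3), treatment as the single term, two-sided, with Benjamini-Hochberg adjustment over all probe sets. The fit was tested on simulated data. The genes and lists were chosen with earlier results of these data known. Named were all 7 genes, up to 4 of each muscle or FGF list by lowest p, up to 3 of each tissue list by highest mean, and the nearest profiles. Other list members, such as ckmb, atp2a1, tnnt3b, tpma, myhz1.3, acta1a, tcf12, id2a, id3, myf6, pax3a, pax7a, xirp2a, pvalb5, dusp5, dusp2 and spry2, were named after their values were seen. Alternatives were other pseudocounts (1 and 64), normalisations, filters, a variance trend, a replicate block, a gene's probe sets averaged, the Tag floor and each array left out. With 1 array left out, only the intact pair gives a spread, and the lone array is assumed to vary like it.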

Additional observations from a re-analysis of the deposited data

How the results depend on the processing

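The values of myod1, myog and myf5 stayed below 0 in every setting that kept them but the Tag floor, where myod1 and myf5 were at 0 because no array exceeded it. Filters took genes away: without the dimmest 25% of probe sets 4 of the 7 genes were left (median -0.30), and without the dimmest 50% only ckma (0.67), while the fast muscle median was -0.81 over 11 genes. With the Tag floor the median of the 7 was 0, and 21 probe sets passed the adjusted threshold in limma, where 0 had; the floor removes the spread of dim probe sets. Without 1 array, the count passing ran from 0 to 3 and that at an unadjusted p from 951 to 3011, and the medians from -1.30 to -0.35 for the 7 genes (-1.27 with all arrays) and from -0.51 to 0.09 for the other fast muscle genes. Of the 7 genes only pvalb1 changed sign, its values with 1 array left out running from -0.80 to 0.63, the highest without SU5402 replicate 1. Under the other normalisations, pseudocounts and the variance trend, every one of the 7 kept its direction.

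Samples share only a replicate number, and no label says that it marks a clutch or day. Deviations of same-numbered arrays from their group means correlated at 0.28 over probe sets. With the replicate block, 2582 of 15502 probe sets had an unadjusted p under 0.05 in limma, against 2008, and 0 passed the adjusted threshold. By direction, 1254 of the 2582 were lower and 1328 higher, against 963 and 1045 without the block. Among the 27 other fast muscle genes, 9 lower and 2 higher had such a p with the block, against 3 and 0. For mylpfa this p was 0.0067 in place of 0.15. The fit without the block has 2 residual degrees of freedom for each probe set's own spread, and the block leaves fewer.

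Detection calls were not used here, and 3 of the 7 genes lay below the Tag level on every array.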

Other observations

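The array's 4 control probe sets labelled acta1, which the platform annotation pairs with the muscle actin gene actc1b, were outside the comparisons above. The 3' set was at 2863 and 3119 in the SU5402 arrays, against 1725 and 4558 in the DMSO arrays. The middle set was at 247 and 443 in the SU5402 arrays, against 221 and 588 in the DMSO arrays. In these 2 sets the SU5402 arrays lay between the DMSO arrays, and DMSO replicate 2 was the highest of the 4, as it was for mylpfa, atp2a1 and ckmb. The other two sets, at the 5' end, differed from these and from each other. One was at 130 and 35.2 in the SU5402 arrays, against 137 and 172 in the DMSO arrays. The other was at 315 and 362 in the SU5402 arrays, against 249 and 240.5 in the DMSO arrays, where DMSO replicate 2 was the lowest of the 4.

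Of the parvalbumin genes not in the muscle lists, pvalb6 was at 233 and 180 in the SU5402 arrays, against 151 and 189 in the DMSO arrays, and pvalb8 was at 189 and 299 in the SU5402 arrays, against 215 and 189 in the DMSO arrays. Both were above the Tag level on all arrays, and in neither did the groups separate.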
